A study of Mus musculus with 20 samples.

Results

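The comparison described here asked how the transcriptome of cultured macrophages differed when the extracellular vesicles (EVs) they received came from mice lacking the small noncoding RNA RNY1 rather than from RNY1+/+ mice. All recipient cells were wild-type bone marrow-derived macrophages (BMDMs), grown from female C57BL/6J bone marrow, plated at 200000 cells per well and used on day 7 of culture in serum-free Opti-MEM. The EV-enriched fraction (EVFx) was the pool of early size-exclusion fractions of bronchoalveolar lavage fluid (BALF) from mice with ovalbumin-induced airway inflammation, either RNY1+/+ or carrying a CRISPR deletion at Rny1 (RNY1-/-). It was stored for 5 days at 4°C and added at 35000000 particles per µL for both genotypes. The recipient genotype, the allergen challenge and the particle dose were therefore shared, and the stated difference was the genotype of the BALF donors. The paper obtained its RNY1-/- mice from GemPharmatech, and all its other mice were wild-type C57BL/6J from JAX. Donor genotype and the source of the donor mice thus cannot be told apart here. The time of exposure is not given in the labels, and no source says if the 4 libraries per treatment represent different lavage pools, mice or wells, so the p-values measure the spread between these libraries, which may be technical. Each group had 4 libraries, and 4 libraries of PBS-treated BMDMs are quoted beside them as the untreated level. Members were all genes that averaged at least 3 CPM (counts scaled to the same library total, so that levels compare between libraries) over the 8 EVFx libraries. They numbered 10321 of the 78317 genes listed and of the 34342 genes with a count in any of the 20 libraries of the study. At the limit, Tab1 (2.9996 CPM) and Twnk (2.9998 CPM) fell just outside, and Larp7-ps (3.0015 CPM) and Tmtc4 (3.0017 CPM) just inside.

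Y RNAs are short noncoding RNAs made by RNA polymerase III that are bound by the Ro60 and La proteins and fold into a stem closed by their 5′ and 3′ ends. Fragments and full-length forms are found in vesicles and in extracellular protein complexes. Macrophages take up such particles and read their contents through endosomal and cytosolic sensors, and inflammatory stimulation induces cytokine, chemokine and acute-phase genes through NF-kB and antiviral genes through interferon signalling. The mouse Y RNA deleted in the donors is printed below with its relative Rny3. Both sequences are GENCODE M21 transcripts, and the capitals mark the part matched by the study's forward qPCR primer, which lies at the 5′ end of each (bases 1 to 20 of 112 for Rny1 and bases 1 to 26 of 102 for Rny3).
Rny1: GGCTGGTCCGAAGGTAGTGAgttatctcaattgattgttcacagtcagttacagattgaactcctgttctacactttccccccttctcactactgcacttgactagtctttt
Rny3: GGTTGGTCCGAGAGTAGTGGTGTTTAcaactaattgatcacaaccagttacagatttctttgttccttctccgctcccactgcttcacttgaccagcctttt

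Neither Y RNA was measurable in the recipient macrophages. The libraries were primed on poly(A) tails, which Y RNAs lack, and 2 file entries share the name Rny1 with identical fractional counts. Their summed counts were between 2 and 3 in each RNY1+/+ EVFx library (9 in all), between 0 and 1 in each RNY1-/- EVFx library (1 in all) and 0 in all 4 PBS libraries. Rny3 had at most 2 counts in any EVFx library, and Rpl31-ps7, the pseudogene at the Rny1 locus, at most 1. All these values are at or under the 3 counts taken as the detection limit, so no fold change is given, and the deletion, which was made in the donors and not in the recipient cells, was not checked by these libraries.

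The 8 libraries held between 4059987 and 8277366 counts. The cells matched their label: all 20 macrophage identity genes were tested and their summed level was 16276 to 17982 CPM in the RNY1+/+ EVFx libraries and 16337 to 18954 CPM in the RNY1-/- EVFx libraries. None of the 12 lymphocyte markers and none of the 12 eosinophil, mast cell and basophil markers reached 3 CPM. Of 12 neutrophil markers 4 did, and the list summed to 176 to 232 CPM in RNY1+/+ EVFx and 212 to 290 CPM in RNY1-/- EVFx, against 353 to 374 CPM in PBS. Of 12 airway epithelial markers 2 did (5.32 to 11.01 CPM in RNY1+/+ EVFx, 9.94 to 30.7 CPM in RNY1-/- EVFx and 8.53 to 33.1 CPM in PBS for the summed list), and of 10 fibroblast markers 2 did (23.8 to 42.3, 12.1 to 22.04 and 27.4 to 56.2 CPM). Among 8 erythroid markers, Tfrc, which macrophages also express, was the one tested. The first principal component held 63.4% of the variance and separated the 2 genotypes without overlap, with RNY1+/+ EVFx replicate 4 farthest out (-38.4, against -20.8 to -12.9 for the other RNY1+/+ EVFx libraries and 13.1 to 29.3 for the RNY1-/- EVFx libraries).

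Macrophages given RNY1-/- EVFx differed from those given RNY1+/+ EVFx in many genes, most by less than 0.5 on the log2 scale. At an adjusted p under 0.05 (edgeR quasi-likelihood test, Benjamini-Hochberg over 10321 genes), 5377 genes changed, 52.1% of those tested, with 2633 higher (25.5%) and 2744 lower (26.6%) in RNY1-/- EVFx. The median absolute log2 fold change was 0.33, and 71.6% of the genes stayed under 0.5. Differentially expressed genes (DEGs), which had to pass the test and differ by more than 1 on the log2 scale, numbered 243 (2.35% of those tested), of which 39 were higher (0.378%) and 204 lower (1.98%). The CPM of the groups did not overlap for 199 of the 204 lower and 26 of the 39 higher DEGs, while this held for 44.7% of all genes tested (26.9% lower and 17.8% higher). Of the lower DEGs 177 were protein-coding, whereas 27 of the 39 higher DEGs were annotated as long noncoding RNA, pseudogene or unconfirmed transcript (TEC). Most DEGs were weakly expressed: the median level was 7.80 CPM for the lower and 4.83 CPM for the higher DEGs, against 22.4 CPM over all genes, and 82 lower and 9 higher DEGs averaged at least 10 CPM.

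**Figure D1:**
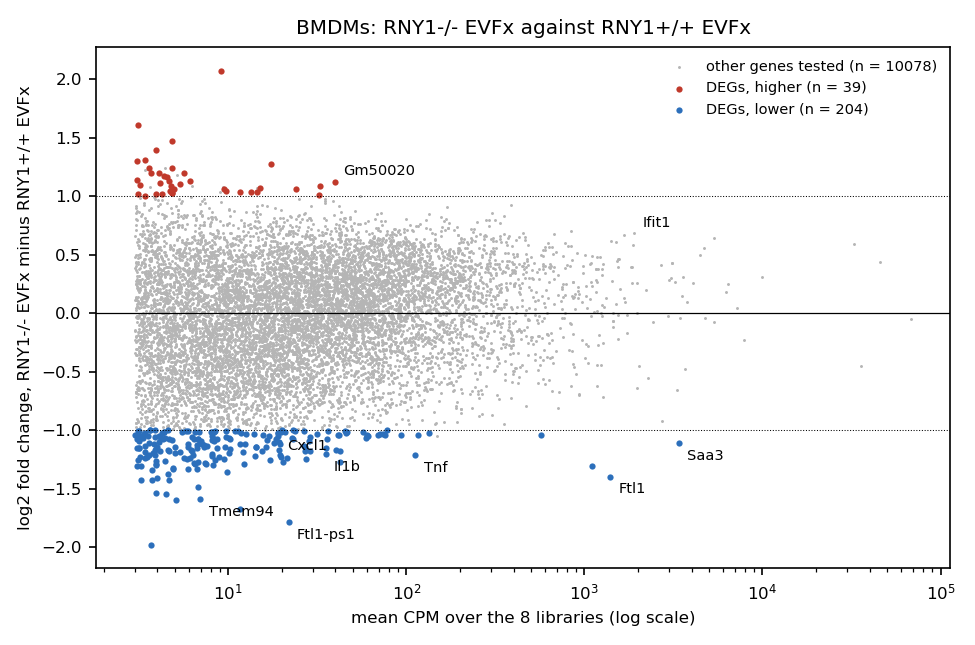
Log2 fold change (RNY1-/- EVFx minus RNY1+/+ EVFx, y axis) against the mean CPM over the 8 libraries (x axis, log scale) for the 10321 genes tested. The 204 lower DEGs are blue, the 39 higher DEGs red and the other genes grey, the dotted lines mark a log2 fold change of 1 in each direction, and Saa3 and Ftl1 are the labelled lower DEGs of highest level.

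One library set a large part of the DEG count. Without RNY1+/+ EVFx replicate 4 there were 99 DEGs (85 lower and 14 higher), of which 96 were among the 243, and leaving out any other library gave 204 to 349. Of the 243 DEGs, 233 stayed under an adjusted p of 0.05 in the same direction without that library.

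**Figure D2:**
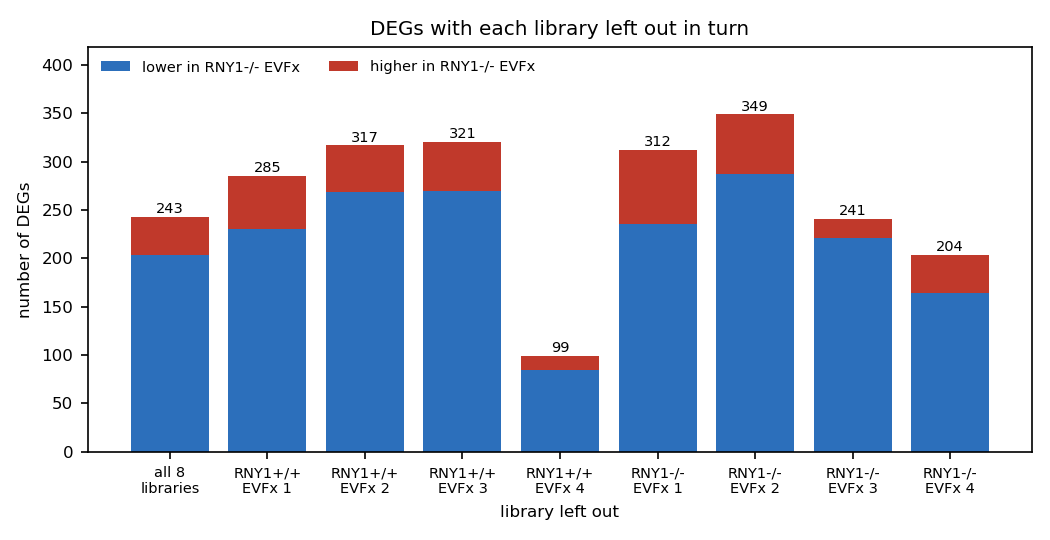
Number of DEGs (y axis) with all 8 libraries and with each library left out in turn (x axis), split into genes lower (blue) and higher (red) in RNY1-/- EVFx. The count is 243 with all libraries, 99 without RNY1+/+ EVFx replicate 4 and 204 to 349 without any of the others.

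Fold changes also followed the base composition of the transcripts. Over the 10020 genes with a GENCODE transcript, log2 fold change and GC content had a Spearman correlation across genes of -0.65 (genes are not independent replicates, and no p is given). In the quintile of genes with the lowest GC content (27.5% to 43.2%) the median log2 fold change was 0.36, with 1194 genes higher and 50 lower, and in the quintile with the highest (54.4% to 71.4%) it was -0.49, with 61 higher and 1264 lower. The latter quintile held 141 of the 204 lower DEGs. The lower DEGs had a median GC content of 56.5% and the higher DEGs of 46.3%, against 48.6% over all genes. The library-level values moved in step: the count-weighted GC content was 47.1% ± 0.252 (SD, n = 4) in RNY1+/+ EVFx, highest in replicate 4 (47.4%), and 46.1% ± 0.148 in RNY1-/- EVFx, without overlap (two-sided exact permutation test, p = 0.0286, the smallest that 4 against 4 libraries can give, and 0.0572 adjusted over 8 library measures). The slope of log2 CPM on GC content, relative to all 20 libraries, was 0.16 to 0.46 per 10 percentage points in RNY1+/+ EVFx, -0.27 to -0.09 in RNY1-/- EVFx, -0.12 to 0.59 in PBS, -0.29 to -0.12 in RNY1+/+ ProteinFx and -0.45 to 0.03 in RNY1-/- ProteinFx, the protein-enriched fraction of the same BALF, so libraries of 1 treatment could differ as much as the genotypes did. When trends with GC content and transcript length were removed from each library, 3308 genes passed (33% of 10020, with 1682 or 16.8% higher and 1626 or 16.2% lower) and 95 were DEGs (0.948%, with 59 higher and 36 lower). Of the 243 DEGs, 42 kept that status (25 lower and 17 higher), and 168 of the lower and 28 of the higher DEGs remained at an adjusted p under 0.05 in their direction. Whether the trend arose in the cells or in library preparation was not tested. For the gene lists that follow, the counts with the trends removed stand beside those without, and are to be read against these shares.

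**Figure D3:**
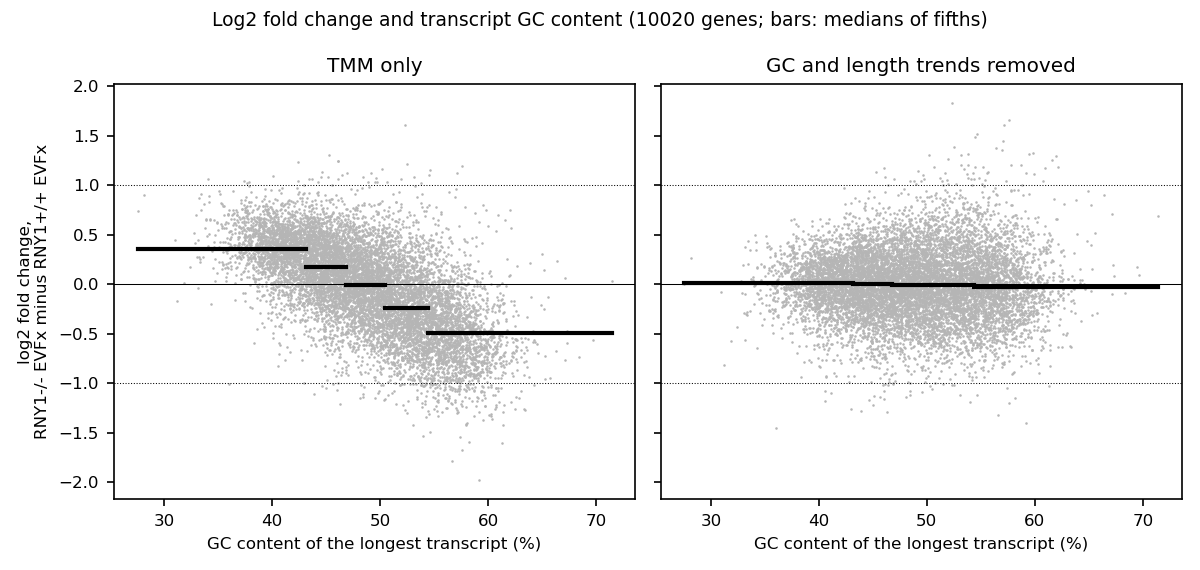
Log2 fold change (RNY1-/- EVFx minus RNY1+/+ EVFx, y axis) against transcript GC content (x axis) for 10020 genes, before (left) and after (right) removal of GC and length trends per library. Bars are medians of quintiles of the genes by GC content, running from 0.36 to -0.49 on the left and from 0.01 to -0.03 on the right.

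Inflammatory genes that depend on NF-kB were lower more often than higher in RNY1-/- EVFx. Of 71 listed NF-kB inflammatory genes 59 were tested, and 30 were lower and 7 higher in RNY1-/- EVFx, with a median log2 fold change of -0.31, against 26.6% lower, 25.5% higher and a median of 0.00 over all genes. With the trends removed, 26 were lower and 7 higher (median -0.19), and without RNY1+/+ EVFx replicate 4, 28 were lower and 5 higher (median -0.30). By role, 6 of 11 cytokines, 6 of 11 chemokines, 9 of 17 enzymes or receptors and 9 of 20 NF-kB components or inhibitors were lower. The 6 DEGs of the list were all lower, as were 204 of the 243 DEGs over all genes. With the trends removed, the DEGs of the list were Il1b, Saa3 and Cxcl1, which are described below. They were all lower, against 36 lower and 59 higher DEGs over all genes.

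Tnf, which encodes the cytokine TNF, had 149, 147, 137 and 204 CPM in RNY1+/+ EVFx replicates 1 to 4 and 60.2, 73.3, 54.9 and 72.7 CPM in RNY1-/- EVFx, with PBS at 5.54 ± 1.38 CPM (SD, n = 4). The groups did not overlap, and the log2 fold change was -1.22 (adjusted p = 0.000199, standard error 0.13), or -0.96 with the trends removed. Il1b, which encodes the pro-form of IL-1β, had 41.4, 48.8, 51.3 and 57.1 CPM in RNY1+/+ EVFx and 14.1, 19.2, 21.2 and 28.3 CPM in RNY1-/- EVFx, again without overlap. Its level in PBS was 0.478 ± 0.375 CPM, so both EVFx groups lay far above the untreated cells. The log2 fold change of Il1b was -1.21 (standard error 0.17, adjusted p = 0.000279), and it was -1.29 with the trends removed, its GC content being 46.3%, below the median.

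Saa3, an acute-phase serum amyloid A gene expressed by macrophages, was the most abundant DEG. It had 5438, 5057, 3622 and 4737 CPM in RNY1+/+ EVFx and 2328, 2293, 1427 and 2249 CPM in RNY1-/- EVFx. The groups did not overlap and the log2 fold change was -1.11 (adjusted p = 0.000247, standard error 0.16), or -1.07 with the trends removed and -1.11 without RNY1+/+ EVFx replicate 4. Cxcl1, a neutrophil-attracting chemokine, had 17.6, 25.1, 25.0 and 35.9 CPM in RNY1+/+ EVFx and 9.85, 11.3, 13.3 and 14.8 CPM in RNY1-/- EVFx. Replicate 4 was the highest RNY1+/+ EVFx library for Cxcl1, and the log2 fold change of -1.02 (adjusted p = 0.0015, standard error 0.20) became -0.81 without it. Nfkb2, the p100 precursor of the noncanonical NF-kB pathway and itself an NF-kB target, averaged 26.8 ± 7.35 and 11.6 ± 1.15 CPM (SD, n = 4 each). Its log2 fold change of -1.17 (adjusted p = 0.000344) was -0.63 with the trends removed, its GC content being 59.4%. In contrast, Clec4e, the inducible receptor Mincle and the most abundant listed gene that did not pass, averaged 3037 ± 232 CPM in RNY1+/+ EVFx and 2836 ± 506 CPM in RNY1-/- EVFx (log2 fold change -0.02, adjusted p = 0.888), against 19.9 ± 1.83 CPM in PBS, and was -0.35 with the trends removed (adjusted p = 0.0267).

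**Figure D4:**
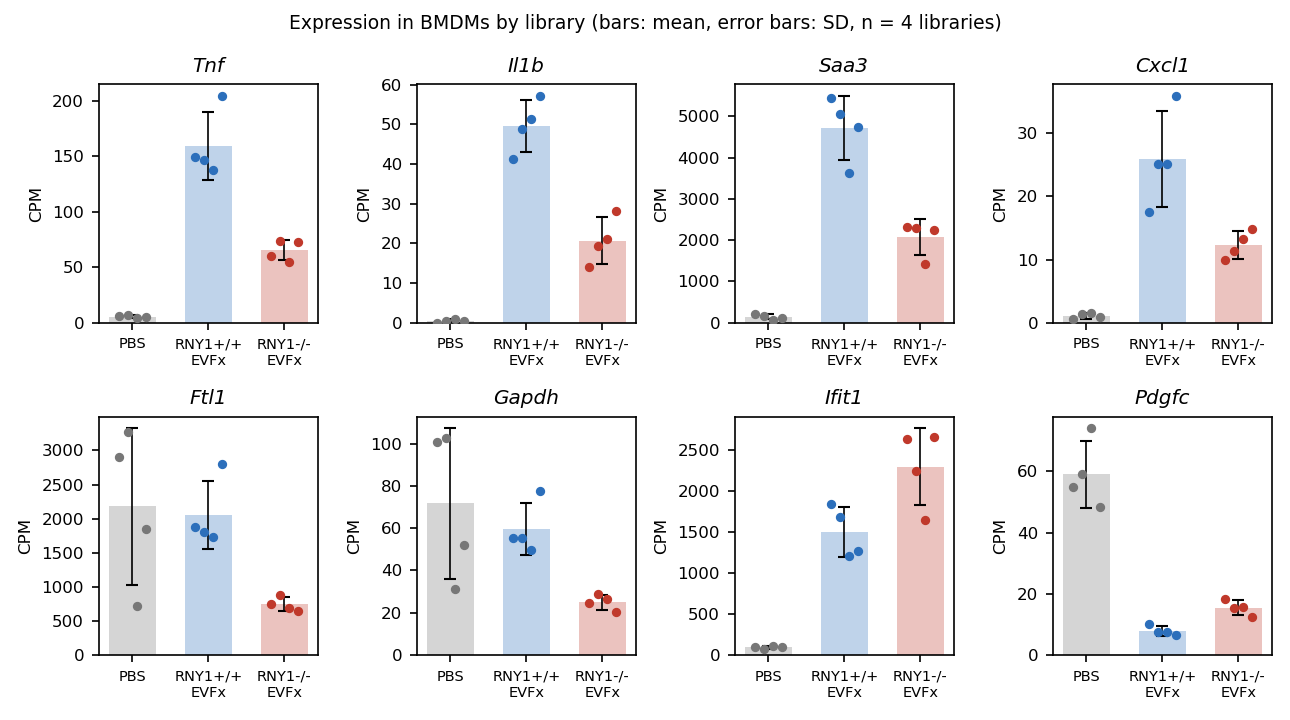
CPM (y axis, from 0) of 8 genes in each library of PBS-, RNY1+/+ EVFx- and RNY1-/- EVFx-treated BMDMs (points), with group means (bars) and SD (error bars, n = 4 libraries). Tnf, Il1b, Saa3, Cxcl1, Ftl1 and Gapdh are lower in every RNY1-/- EVFx library than in any RNY1+/+ EVFx library, Pdgfc is higher in every one, and for Ifit1 the groups overlap.

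Promoters are shown for the 4 cytokine, chemokine and acute-phase genes described above, because they moved together. The windows, around each listed start, are from RefSeq on GRCm38.p6 (the files use GRCm39), and were searched on both strands for an NF-kB motif, GGGA and TTCC separated by 2 bases of any kind. Capitals mark matches. The intervals are chr5:90890995-90891294 (plus strand) for Cxcl1, chr2:129371090-129371389 (minus strand) for Il1b, chr7:46715627-46715926 (minus strand) for Saa3 and chr17:35201958-35202257 (minus strand) for Tnf.
Cxcl1: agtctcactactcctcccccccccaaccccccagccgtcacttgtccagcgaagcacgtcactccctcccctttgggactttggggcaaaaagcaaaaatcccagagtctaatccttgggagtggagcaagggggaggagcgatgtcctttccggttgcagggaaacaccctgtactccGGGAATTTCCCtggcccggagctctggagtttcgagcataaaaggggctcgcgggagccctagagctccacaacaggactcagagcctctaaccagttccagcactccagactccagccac
Il1b: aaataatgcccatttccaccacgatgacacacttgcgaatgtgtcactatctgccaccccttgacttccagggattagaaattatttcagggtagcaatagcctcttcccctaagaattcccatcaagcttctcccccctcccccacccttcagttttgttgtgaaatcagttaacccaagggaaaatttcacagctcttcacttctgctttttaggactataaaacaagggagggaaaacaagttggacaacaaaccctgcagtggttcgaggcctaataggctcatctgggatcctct
Saa3: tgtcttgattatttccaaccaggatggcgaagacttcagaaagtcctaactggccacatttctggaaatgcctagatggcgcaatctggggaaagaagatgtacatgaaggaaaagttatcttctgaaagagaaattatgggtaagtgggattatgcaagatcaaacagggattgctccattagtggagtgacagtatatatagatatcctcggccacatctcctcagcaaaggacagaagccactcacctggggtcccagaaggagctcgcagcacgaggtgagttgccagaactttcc
Tnf: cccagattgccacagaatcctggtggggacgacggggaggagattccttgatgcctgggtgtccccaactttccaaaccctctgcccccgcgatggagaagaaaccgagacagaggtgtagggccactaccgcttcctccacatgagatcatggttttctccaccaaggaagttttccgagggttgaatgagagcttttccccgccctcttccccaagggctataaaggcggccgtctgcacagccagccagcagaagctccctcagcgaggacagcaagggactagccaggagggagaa
In Cxcl1 the motif and its reverse complement overlap in 1 run that begins 71 bases before the listed start, and the other 3 windows held no match to these letters. Over all 32851 promoters listed by RefSeq, 1.47% held a match, as did a promoter of 131 of the 7375 genes tested that matched by symbol (1.78%), of 5 of 26 lower NF-kB inflammatory genes (19.2%) and of 1 of the 20 others in that list (5.00%). These are counts of letter matches in a short window, and draw on a motif chosen with the results known.

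A smaller share of interferon-stimulated genes than of all genes passed the test, in both directions. Of 69 listed, 68 were tested, of which 13 were higher and 11 lower, against 25.5% and 26.6% of all genes, with a median log2 fold change of 0.03. With the trends removed 1 was higher and 7 lower (median -0.01), against 16.8% and 16.2%, and without RNY1+/+ EVFx replicate 4, 4 were higher and 10 lower. Ifit1, an interferon-induced RNA-binding antiviral effector, had 1837, 1685, 1211 and 1273 CPM in RNY1+/+ EVFx and 2634, 2248, 1653 and 2660 CPM in RNY1-/- EVFx. The groups overlapped, and the log2 fold change was 0.69 (adjusted p = 0.004, standard error 0.16), or 0.50 with the trends removed (adjusted p = 0.0208). Ifi35 and Bst2 (tetherin), both interferon-induced, went the other way, with 21.7 ± 4.85 and 9.23 ± 2.92 CPM for Ifi35 (log2 fold change -1.18, adjusted p = 0.000749) and 609 ± 94.2 and 334 ± 64.7 CPM for Bst2 (-0.80, adjusted p = 0.000509). With the trends removed Ifi35 was at -0.82 and Bst2 at -0.40, both still past the test. Gbp8, an interferon-induced GTPase, had a log2 fold change of 0.74 (adjusted p = 0.0364), which missed the threshold without RNY1+/+ EVFx replicate 4 (0.54, adjusted p = 0.107) and with the trends removed (0.56, adjusted p = 0.111). Rsad2 (viperin), the most abundant listed gene that did not pass, averaged 2113 CPM and 2311 CPM (log2 fold change 0.20, adjusted p = 0.5). Its lowest library was replicate 3 in both groups (1350.9 and 1332.5 CPM), a spread that the unpaired test counted as noise.

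The candidate genes that the study followed by qPCR, chosen from its ProteinFx comparison, did not pass the test in this comparison except for Ifit1. Mx1, an antiviral GTPase, had 362, 326, 182 and 246 CPM in RNY1+/+ EVFx and 285, 335, 142 and 219 CPM in RNY1-/- EVFx (log2 fold change -0.12, standard error 0.23, adjusted p = 0.693). Cxcl10, an interferon-induced chemokine, had 246, 207, 73.3 and 93.6 CPM against 261, 245, 128 and 194 CPM (0.49, standard error 0.32, adjusted p = 0.218). Ccl2, a monocyte chemokine, had 161, 147, 54.9 and 65.4 CPM against 158, 155, 51.5 and 101 CPM (0.20, standard error 0.35, adjusted p = 0.654). For these 3 genes the groups overlapped, and in both groups replicate 3 was the lowest library. The test did not pair libraries by replicate number, so this spread counted as noise and limited the detection of a smaller genotype difference. Edn1, the endothelin precursor, was weakly expressed at 4.88 ± 1.12 and 3.08 ± 0.990 CPM (log2 fold change -0.64, adjusted p = 0.0584, and -0.72 with adjusted p = 0.043 once the trends were removed). The study's housekeeping genes Rab14, Arpc2 and Cltc averaged 422 ± 11.5, 884 ± 51.6 and 494 ± 33.1 CPM in RNY1+/+ EVFx and 403 ± 23.97, 792 ± 68.7 and 486 ± 9.67 CPM in RNY1-/- EVFx. Their log2 fold changes were 0.01, -0.09 and 0.05, with adjusted p-values from 0.329 to 0.953, but with the trends removed Rab14 and Cltc were lower (-0.27 and -0.25, adjusted p = 0.00673 and 0.0185).

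Ftl1, the ferritin light chain that stores iron, was among the most abundant DEGs. It had 1878, 1798, 1733 and 2802 CPM in RNY1+/+ EVFx and 752, 887, 689 and 649 CPM in RNY1-/- EVFx. The groups did not overlap and the log2 fold change was -1.40 (adjusted p = 0.000199, standard error 0.14), or -1.21 without RNY1+/+ EVFx replicate 4, its highest library, and -0.89 with the trends removed (GC content 58.1%). The 4 PBS libraries ranged from 717 to 3265 CPM, wider than either EVFx group. Ftl1-ps1 (34.2 ± 13.96 and 9.52 ± 1.32 CPM, log2 fold change -1.79), Gm15590 (17.9 ± 5.50 and 5.48 ± 0.952 CPM, -1.67) and the microRNA entry Gm56125 (1601 and 618 CPM, -1.31) went with it. Reads that map to several places were shared out as fractions between near-identical copies, so the values of a ferritin gene and its pseudogene copies cannot be told apart. Fth1, the ferritin heavy chain, averaged 71286 ± 5122 and 65479 ± 4186 CPM (log2 fold change -0.05, adjusted p = 0.675). Over 38 iron handling and NRF2 antioxidant genes tested of 40, 16 were lower and 11 higher (median -0.20), against 26.6% and 25.5% of all genes. With the trends removed 10 were lower and 8 higher (median -0.02), against 16.2% and 16.8%. Prdx5, a peroxiredoxin, averaged 472 ± 76.0 and 233 ± 18.6 CPM (log2 fold change -0.95, -0.48 with the trends removed), and Gpx4, the lipid peroxide-reducing enzyme, had a log2 fold change of -0.94, which missed the threshold once the trends were removed (-0.37, adjusted p = 0.106).

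Of 24 listed glycolytic genes 22 were tested, and 14 were lower and 1 higher (median log2 fold change -0.56), against 26.6% lower and 25.5% higher over all genes, with all 12 enzymes that passed being lower. With the trends removed 7 were lower and 2 higher (median -0.15), against 16.2% and 16.8%. Gapdh had 55.3, 55.2, 49.7 and 77.4 CPM in RNY1+/+ EVFx and 24.4, 28.8, 26.5 and 20.5 CPM in RNY1-/- EVFx. The groups did not overlap and the log2 fold change was -1.18 (adjusted p = 0.000199, standard error 0.14), or -0.90 with the trends removed. Tpi1, triose phosphate isomerase, had 76.1, 84.6, 66.8 and 99.9 CPM against 40.7, 35.5, 40.4 and 33.7 CPM (-1.06, adjusted p = 0.000199), or -0.73 with the trends removed. Eno1 (-0.90) and Aldoa (-0.82) were also lower and fell closer to 0 with the trends removed (-0.39 and -0.33, both still past the test). Ldha, the lactate dehydrogenase A subunit, averaged 231 ± 21.9 and 240 ± 12.2 CPM (0.12, adjusted p = 0.187), but was higher once the trends were removed (0.33, adjusted p = 0.00596).

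Before the trends were removed, the genes of the mitochondrial respiratory chain split by genome. Of 76 nuclear-encoded genes 43 were lower and 14 higher (median -0.27), against 26.6% and 25.5% of all genes. With the trends removed 22 were lower and 12 higher (median -0.12), against 16.2% and 16.8%. The ATP synthase subunit c gene Atp5mc1 had a log2 fold change of -0.90 (36.4 ± 3.32 and 18.7 ± 2.12 CPM, adjusted p = 0.000199), and -1.01 with the trends removed, while Sdhd, a membrane anchor of succinate dehydrogenase, was higher (36.2 ± 3.93 and 60.5 ± 10.7 CPM, 0.81, adjusted p = 0.000409, and 0.88 with the trends removed). Uqcrc1 of complex III was lower (-0.81, and -0.49 with the trends removed). Of the 13 mitochondria-encoded genes 6 were higher and none lower (median 0.37), but none was higher and 4 were lower with the trends removed (median -0.08). For example, mt-Nd4 (959 ± 82.9 and 1229 ± 148 CPM) went from a log2 fold change of 0.43 (adjusted p = 0.00363) to -0.01 (adjusted p = 0.944). Their median GC content was 37.1%, among the lowest of the lists. The share of counts in mitochondrial ribosomal RNA, a measure added after the data were seen, was 3.29% ± 0.564 in RNY1+/+ EVFx and 4.49% ± 0.407 in RNY1-/- EVFx, without overlap (two-sided exact permutation test, p = 0.0286).

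Among the lists for translation and protein degradation, more members were lower than higher. Over all genes 26.6% were lower and 25.5% higher, and 16.2% and 16.8% with the trends removed. Of 79 cytosolic ribosomal protein genes 54 were lower and 3 higher (median -0.34), and 32 and 6 with the trends removed (median -0.12). Their summed share of counts was 3.73% ± 0.0791 in RNY1+/+ EVFx and 3.14% ± 0.126 in RNY1-/- EVFx, without overlap (two-sided exact permutation test, p = 0.0286, and 0.0572 adjusted over 8 measures). Rpl29 was the DEG of the list, with 26.9 ± 5.46 and 11.9 ± 1.42 CPM (-1.11, adjusted p = 0.000221, and -0.55 with the trends removed). Of 36 proteasome genes 22 were lower and 6 higher (median -0.33), and 17 and 4 with the trends removed. Of the 19S regulator, 11 of 17 subunits were lower, and 11 were lower with the trends removed (median -0.43). Psmd13 was the DEG (20.2 ± 2.27 and 8.54 ± 2.31 CPM, -1.14, adjusted p = 0.000247, and -0.81 with the trends removed). Of 36 translation factors 17 were lower and 7 higher (median -0.10), and 12 and 4 with the trends removed (median -0.15). Among them were Eef2, the ribosomal translocase, at -0.91 and Eif4ebp1, the cap-binding repressor, at -0.89. With the trends removed Eef2 was at -0.41 and Eif4ebp1 at -0.86. Of 38 ribosome biogenesis genes 15 were lower and 2 higher, and 12 and 0 with the trends removed. Pes1, a 60S assembly factor, was at -0.84, and at -0.70 with the trends removed.

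Lysosomal and MHC class II genes were also lower more often than higher. The shares over all genes were 26.6% lower and 25.5% higher, and 16.2% and 16.8% with the trends removed. Of 55 lysosome and V-ATPase genes tested 30 were lower and 9 higher (median -0.34), and 22 and 4 with the trends removed (median -0.19). Atp6v0a1, a V-ATPase membrane subunit, was at -0.81, and at -0.89 with the trends removed. Ctsb, the abundant cathepsin B, averaged 5638 and 5098 CPM and did not pass (-0.08, adjusted p = 0.426). Of 15 MHC class I and II genes tested 9 were lower and 3 higher (median -0.46), but 4 and 2 with the trends removed (median -0.12). All 5 class II pathway genes tested were lower, and 3 of them with the trends removed. Of 10 class I genes 4 were lower and 3 higher, and 1 and 2 with the trends removed (median 0.01). Cd74, the invariant chain, had 30.8, 36.1, 46.3 and 58.7 CPM against 17.3, 23.98, 23.6 and 15.6 CPM (-1.04, adjusted p = 0.00102, and -0.57 with adjusted p = 0.018 with the trends removed). H2-K1, a class I heavy chain, averaged 7273 and 7130 CPM and did not pass (0.04, adjusted p = 0.71) and was higher with the trends removed (0.41, adjusted p = 0.00517).

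Genes for the uptake and sorting of vesicles, which bear on how BMDMs handle EVFx, were mixed. Of 40 tested of 44, 16 were lower and 11 higher (median -0.10), against 26.6% and 25.5% of all genes, and 9 and 7 with the trends removed, against 16.2% and 16.8%. Mfge8, a phosphatidylserine-binding bridge to phagocytic integrins, had 31.4, 28.2, 28.2 and 68.3 CPM in RNY1+/+ EVFx and 17.5, 15.8, 16.01 and 13.96 CPM in RNY1-/- EVFx. The groups did not overlap, but replicate 4 stood far above the other RNY1+/+ EVFx libraries, and the log2 fold change of -1.25 was -0.82 without it. Cd82, a tetraspanin, was lower (-1.19, adjusted p = 0.000203, and -0.76 with the trends removed). Colec12, a scavenger receptor, was higher (22.2 and 36.3 CPM, 0.79, adjusted p = 0.000313, and 0.47 with the trends removed). Of 27 nucleic acid sensing genes 11 were lower and 3 higher (median -0.17), and 5 and 2 with the trends removed. Ticam1, the TLR3 and TLR4 adaptor TRIF, was at -1.03 and Unc93b1, the chaperone of endosomal Toll-like receptors, at -0.73 (325 and 187 CPM). With the trends removed Ticam1 was at -0.56 and Unc93b1 at -0.22. Of the 13 genes tested for Ro60, La and other Y RNA-binding proteins, 5 were higher and 3 lower (median 0.03), against 25.5% and 26.6% of all genes. With the trends removed 2 were higher and 3 lower (median -0.05), against 16.8% and 16.2%. Mov10, an RNA helicase, was the DEG among them (16.1 and 7.42 CPM, -1.03, adjusted p = 0.00122, and -0.55 with the trends removed).

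Actin cytoskeleton genes were lower in 24 of 33 tested and higher in 1 (median -0.38), and in 17 and 4 with the trends removed (median -0.22). For this list and the next ones, the shares over all genes were 26.6% lower and 25.5% higher, and 16.2% and 16.8% with the trends removed. Coro1a, an actin-binding coronin of leukocytes, had 27.0, 29.4, 24.03 and 42.0 CPM against 14.1, 14.9, 9.61 and 10.4 CPM (-1.24, adjusted p = 0.000289, and -0.71 with the trends removed). Flna, the filamin A crosslinker, was at -1.03, at -0.79 without RNY1+/+ EVFx replicate 4 and at -0.80 with the trends removed. Of 26 cholesterol synthesis and uptake genes 12 were lower and 4 higher (median -0.18), and 14 and 3 with the trends removed (median -0.24). Among them Mvd and Fdft1, enzymes of the pathway, were at -0.95 and -0.88, and Srebf2, the transcription factor that drives it, was at -0.84 (adjusted p = 0.000199). With the trends removed Mvd, Fdft1 and Srebf2 were at -0.39, -0.66 and -0.40, all still past the test. Of 34 ER stress and chaperone genes 16 were lower and 5 higher (median -0.21), and 10 and 4 with the trends removed, Xbp1, the transcription factor of the unfolded protein response, at -0.83 (98.7 and 52.8 CPM) and Manf, a secreted ER stress protein, at -0.84. With the trends removed Xbp1 was at -0.52 and Manf at -0.65.

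In the lists of pre-mRNA splicing factors and long noncoding RNAs, more members were higher than lower. Over all genes 25.5% were higher and 26.6% lower, and 16.8% and 16.2% with the trends removed. Of 38 splicing factors 20 were higher and 6 lower (median 0.21), but 9 and 4 with the trends removed (median -0.01). Clk1, a kinase of SR splicing proteins, had 91.3, 92.0, 106 and 72.1 CPM in RNY1+/+ EVFx and 148, 131, 149 and 147 CPM in RNY1-/- EVFx (0.74, standard error 0.11, adjusted p = 0.000251, and 0.35 with the trends removed). Of 22 listed nuclear-retained and long noncoding RNAs tested 10 were higher and 2 lower (median 0.28), and 6 and 2 with the trends removed (median 0.05). Over all 523 long noncoding RNA genes tested, 139 were higher and 57 lower (median 0.21), the former share being close to that of all genes. Mir22hg, the host transcript of miR-22, averaged 132 ± 24.5 and 214 ± 25.1 CPM (0.77, adjusted p = 0.000483, and 0.64 with the trends removed). Malat1, the nuclear-retained transcript, averaged 3017 and 3457 CPM (0.26, adjusted p = 0.102). The share of counts in all long noncoding RNA genes was 2.12% ± 0.110 in RNY1+/+ EVFx and 2.39% ± 0.0963 in RNY1-/- EVFx, without overlap (two-sided exact permutation test, p = 0.0286, and 0.0572 adjusted over 8 measures).

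**Figure D5:**
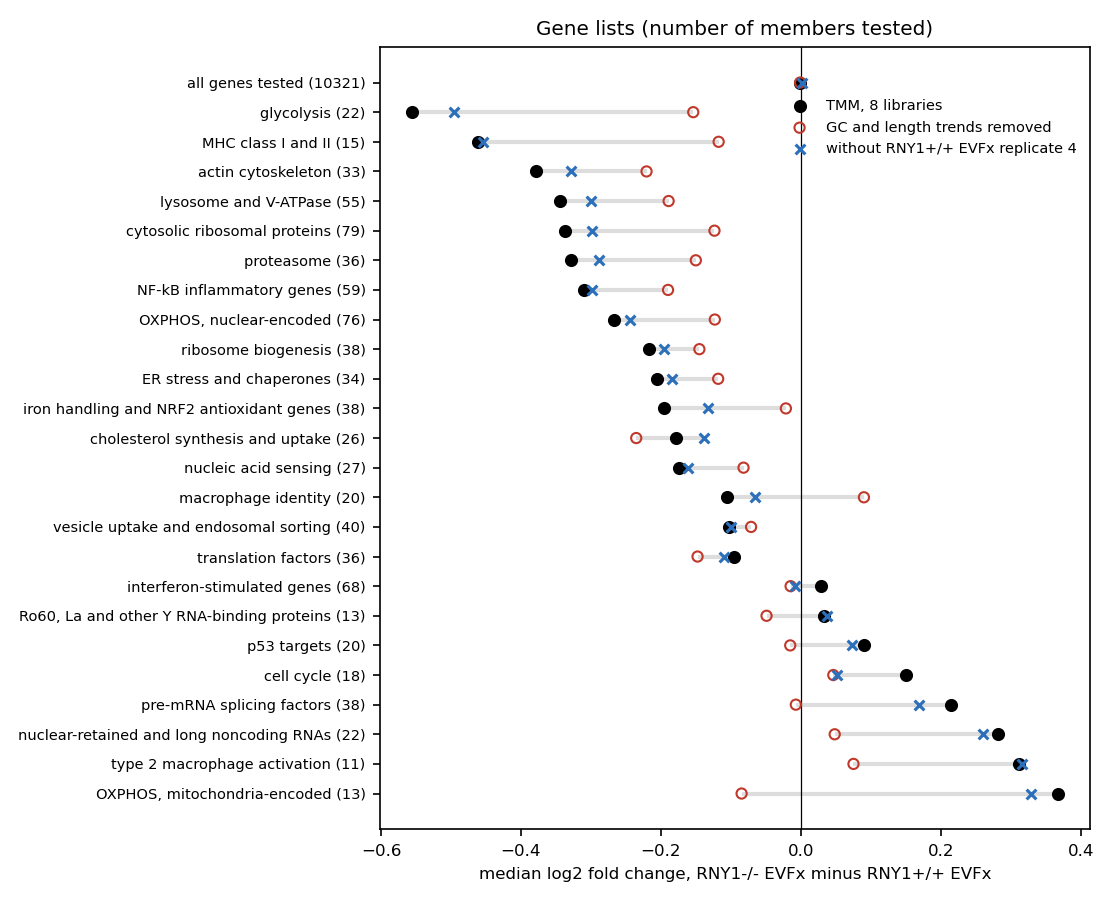
Median log2 fold change (RNY1-/- EVFx minus RNY1+/+ EVFx, x axis) of each gene list with at least 10 members tested (rows, with the number tested) and of all genes. Black points are all 8 libraries with TMM scaling, red circles the values with GC and length trends removed, and blue crosses those without RNY1+/+ EVFx replicate 4. The medians of the glycolysis list are -0.56, -0.15 and -0.50 in that order, and those of the mitochondria-encoded list 0.37, -0.08 and 0.33.

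A few genes met all of the stricter limits, namely a mean of at least 10 CPM, no overlap between the groups and DEG status both before and after the trends were removed. There were 12 of them, 10 lower and 2 higher. Besides Il1b, Saa3, Cxcl1, Ftl1-ps1 and Gm15590, the lower ones included Ube2l6, the conjugating enzyme of the ubiquitin-like protein ISG15, at 61.6, 57.6, 41.6 and 65.9 CPM in RNY1+/+ EVFx and 26.1, 30.7, 17.9 and 20.1 CPM in RNY1-/- EVFx (log2 fold change -1.17, standard error 0.16, and -1.03 with the trends removed). S100a11, a calcium-binding protein, had 50.2, 41.1, 43.3 and 65.1 CPM against 22.6, 25.7, 16.1 and 20.1 CPM (-1.15, and -1.09 with the trends removed). Ube2s, a ubiquitin-conjugating enzyme of the anaphase-promoting complex, averaged 25.9 ± 7.74 and 12.05 ± 0.988 CPM (-1.05, and -1.22 with the trends removed), and the long noncoding RNA Gm28177 and the pseudogene Gm5456 were at -1.14 and -1.01. Without RNY1+/+ EVFx replicate 4, S100a11 (-0.99), Ube2s (-0.90), Cxcl1 (-0.81) and Gm5456 (-0.85) stayed past the test with a log2 fold change nearer to 0 than the limit of 1.

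The 2 higher genes were Pdgfc and the long noncoding RNA Gm50020. Pdgfc, which encodes platelet-derived growth factor C, had 10.2, 7.63, 7.41 and 6.40 CPM in RNY1+/+ EVFx and 18.4, 15.3, 15.8 and 12.3 CPM in RNY1-/- EVFx. Every RNY1-/- EVFx library lay above every RNY1+/+ EVFx library, and the PBS libraries lay above both, at 59.0 ± 10.99 CPM (SD, n = 4). The log2 fold change of Pdgfc was 1.03 (standard error 0.16, adjusted p = 0.000401), 1.18 with the trends removed and 0.94 without RNY1+/+ EVFx replicate 4. Gm50020 had 22.2, 25.6, 33.1 and 22.8 CPM against 55.8, 48.4, 57.0 and 52.0 CPM (1.13, standard error 0.12, adjusted p = 0.000199, and 1.06 with the trends removed). The other higher DEGs of highest level were less settled. Gm15564 had 20.3, 27.8, 99.2 and 30.8 CPM in RNY1-/- EVFx, so its log2 fold change of 1.09 (adjusted p = 0.0469) rested on replicate 3 (0.40 without it, adjusted p = 0.177), and Gm53692 averaged 22.2 ± 2.22 and 42.6 ± 5.56 CPM without overlap (1.01, adjusted p = 0.000199), but has no transcript in the annotation used for GC content.

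Markers of macrophage state moved both ways. Of the 20 macrophage identity genes 8 were lower and 5 higher (median -0.11), against 26.6% and 25.5% of all genes. With the trends removed 2 were lower and 5 higher (median 0.09), against 16.2% and 16.8%. Cebpa, a transcription factor of the myeloid lineage, was lower at 21.98, 19.1, 18.4 and 31.2 CPM in RNY1+/+ EVFx and 9.59, 11.2, 8.62 and 9.67 CPM in RNY1-/- EVFx (-1.14, adjusted p = 0.000352, and -0.50 with the trends removed). Cd14, the lipopolysaccharide co-receptor, averaged 287 ± 29.4 and 169 ± 10.8 CPM (-0.69, adjusted p = 0.000213, and -0.41 with the trends removed). Mrc1, the mannose receptor, was higher, at 60.4, 57.4, 53.9 and 45.4 CPM against 106, 88.5, 92.9 and 69.8 CPM (0.79, adjusted p = 0.000289, and 0.52 with the trends removed), with PBS at 704 ± 177 CPM. Lyz2, lysozyme M, averaged 4954 ± 435 and 4578 ± 304 CPM and did not pass (-0.04, adjusted p = 0.689). Of the neutrophil markers, the alarmin subunits S100a8 and S100a9 were higher (102 ± 20.9 and 145 ± 25.1 CPM, 0.58, and 59.9 ± 9.83 and 81.4 ± 12.8 CPM, 0.52), while the granulocyte colony-stimulating factor receptor Csf3r was lower (17.3 and 9.48 CPM, -0.80). Once the trends were removed S100a8 and S100a9 stayed past the test (0.38 and 0.37), but Csf3r did not (-0.45, adjusted p = 0.0814). The 2 airway epithelial markers tested, the keratins Krt8 and Krt18, were both higher (2.91 ± 0.849 and 6.39 ± 2.76 CPM, 1.13, for Krt8, and 4.72 ± 1.34 and 9.13 ± 5.33 CPM, 0.94, for Krt18), with PBS at 6.46 and 8.22 CPM, and Krt18 missed the threshold without RNY1+/+ EVFx replicate 4 (0.73, adjusted p = 0.114). With the trends removed, Krt8 and Krt18 were both higher and DEGs (median log2 fold change 1.49). These keratins were chosen for mention after their values were seen. The part of other cell types in these results was not tested.

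Last, the effect of donor genotype in EVFx was set against that in the protein-enriched fraction (ProteinFx), which used 8 other libraries. The difference between the 2 effects, tested as an interaction over 16 libraries, passed an adjusted p of 0.05 for 3453 of 10442 genes (33.1%). Within ProteinFx, 583 of 10469 genes passed (5.57%) and 191 were DEGs (1.82%). Those that passed included 9 of the 198 EVFx DEGs tested in the same direction and 1 in the opposite direction. The GC trend differed too, with a Spearman correlation across genes between ProteinFx log2 fold change and GC content of 0.16, and the interaction passed for 2140 genes with the trends removed. Tmem94, a transmembrane protein of the ER, showed one of the largest differences among the DEGs. It had 10.02, 9.13, 9.81 and 13.4 CPM in RNY1+/+ EVFx and 3.68, 3.13, 3.20 and 3.36 CPM in RNY1-/- EVFx (-1.59), against a ProteinFx log2 fold change of 1.11 (interaction -2.71, standard error 0.31, adjusted p = 0.000187). Il1b and Saa3 were lower in both fractions, with EVFx log2 fold changes of -1.21 and -1.11 and ProteinFx log2 fold changes of -2.74 and -2.21 (interaction 1.54, adjusted p = 0.0426, and 1.11, adjusted p = 0.0129). For Tnf the 2 values were -1.22 and -1.35, and the difference of 0.14 had a standard error of 0.27 (adjusted p = 0.698). Clec4e (-0.02 and -2.29), Cxcl10 (0.49 and -2.36), Edn1 (-0.64 and -3.13), Ifit1 (0.69 and -1.03), Mx1 (-0.12 and -1.26) and Ccl2 (0.20 and -1.13) also had more negative values in ProteinFx than in EVFx, with interactions from 1.15 to 2.85 and adjusted p-values from 0.000187 to 0.0379. The study chose its candidates, all of these but Clec4e, from genes differentially expressed in ProteinFx. Clec4e was named because it did not pass in EVFx. Both choices favoured such a difference in advance.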

How the data were processed

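BMDM RNA was sequenced as UMI-tagged 3′-end poly(A) libraries, 4 per treatment. The authors filtered reads with fastp 0.24.0, aligned them with STAR 2.7.11 (GRCm39 in the submitters' processing notes), removed UMI duplicates and counted strand-specifically on exons and 3′ UTRs with Subread 2.1.1, sharing multimapping reads as fractions. The authors deposited these expected counts as they were, beside CPM that divide each count by its library total. The annotation release is not given in the sources used here. Here counts were rounded, the 92 spike-in entries left out, and 4 libraries per group compared with edgeR 4.0.16 (TMM, filterByExpr, mean of at least 3 CPM, quasi-likelihood test, Benjamini-Hochberg). CPM are relative levels: fewer cells or less RNA per cell cannot be seen in them. Single library values were compared by exact permutation. GC content and length of the longest GENCODE M21 transcript (GRCm38) were found for 97.1% of members, and their trends were removed per library with splines of 4 degrees of freedom as offsets. The steps were tested on simulated data. DESeq2 1.42.0, other scalings and filters, thinned counts, a replicate block and leaving out each library were the alternatives. R 4.3.3 and python 3.11.15 were used.

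Named genes were Y RNA genes, the study's candidate and housekeeping genes, up to 4 members of each gene list with the largest change past the test at 10 CPM or more plus its most abundant member that did not pass, the genes meeting the stricter limits, the 3 DEGs of highest level in each direction and the 3 with the largest interaction. Members, lists and the naming rule were chosen with earlier results of these data known. Some genes that this rule names are not reported here.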

Additional observations from a re-analysis of the deposited data

Results flagged for a closer look

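In 314 groups of 4 libraries (named genes and library measures), 1 library stood outside the other 3 by Dixon's criterion in 25, of which 18 were RNY1+/+ EVFx, and chance gives about 1 in 20 groups. Most of these were the highest RNY1+/+ EVFx library, in CPM: Arpc4 (56.1), Atp6ap1 (176), Cd82 (21.6), Eef2 (215), Eif6 (101), Eno1 (85.7), Fbl (53.8), Ftl1 (2802), Ftl1-ps1 (54.9), Gm56125 (2121), Gpx4 (23.4), Ldha (264), Mfge8 (68.3) and S100a8 (134). The lowest RNY1+/+ EVFx library stood apart for Clk4 (64.6 CPM), Lcn2 (13 CPM), Tap2 (30.0 CPM) and total counts (4994439). In RNY1-/- EVFx the highest library stood apart for Gm15564 (99.2 CPM) and the share of counts in ribosomal protein genes (3.33%), and the lowest for Clk1 (131 CPM), Ifi35 (4.88 CPM), S100a8 (108 CPM), Saa3 (1427 CPM) and Tgm2 (17.2 CPM).

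The genotype effect (log2 fold change, RNY1-/- minus RNY1+/+) differed between EVFx and ProteinFx by the interaction test, as EVFx minus ProteinFx, for the long noncoding RNA ENSMUSG00000134718 (3.04), Tmem94 (-2.71), Gm5978 (2.40), Mx1 (1.15), Ifit1 (1.72), Cxcl10 (2.85), Ccl2 (1.33), Edn1 (2.50), Il1b (1.54), Saa3 (1.11) and Clec4e (2.27). Of these, ENSMUSG00000134718 had 4.20, 19.5, 29.1 and 6.06 CPM in RNY1-/- EVFx and 6.97, 26.1, 31.1 and 4.09 CPM in PBS, so libraries within a treatment varied widely. The study's candidate genes in this list were chosen from its ProteinFx comparison.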

How the results depend on the processing

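The DEG count of 243 rose to 366 with filterByExpr alone and to 2766 at an absolute log2 fold change above 0.5, and fell to 103 at a mean of at least 10 CPM, 95 with GC and length trends removed, 84 with a replicate block as well, and 88 with the GC content of the last 500 bases in that removal. Leaving out 1 library gave 99 (RNY1+/+ EVFx replicate 4) to 349 DEGs. With the trends removed and 1 library left out, an alternative chosen after seeing the data, DEGs numbered 114, 106, 114 and 37 without RNY1+/+ EVFx replicates 1 to 4 and 120, 127, 68 and 82 without RNY1-/- EVFx replicates 1 to 4. Genes past an adjusted p of 0.05 numbered 5377, against 3308 with the trends removed, 3020 with the last 500 bases, and, in the same order of libraries left out, 2872, 2848, 3279, 2331, 2740, 3100, 2967 and 2495. The DEG split moved from 204 lower and 39 higher to 36 and 59 with the trends removed, and the interaction count from 3453 to 2140. The correlation of fold change with GC content was -0.65, and -0.68 with the last 500 bases. No source says whether the same replicate number joins libraries of different genotype. Correlations were -0.15 to 0.31 over the same-number pairs and -0.38 to 0.24 over the other pairs. The replicate 3 pair had the highest of all, and 1 of 4 RNY1+/+ EVFx libraries was closest to its own number. These values do not settle whether the libraries were paired. A replicate block gave 225 DEGs and 5572 genes.

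Changes of sign were counted only where the main fit or the alternative had an adjusted p under 0.05. Named genes took the opposite sign in this sense only where trends were removed. Their log2 fold changes, first without and then with the replicate block, were -0.25 and -0.24 for Cltc, -0.23 and -0.23 for Cox5a, -0.27 and -0.27 for Rab14, 0.25 and 0.25 for Tpt1, -0.0829 and -0.0744 for mt-Atp6, -0.0161 and -0.0084 for mt-Nd1, and -0.01 and -0.0105 for mt-Nd4. Tfrc was at -0.0001 with the block, and with the last 500 bases Cltc was at -0.28, Rab14 at -0.20 and Ctsb at 0.24. Of 2799 values for 148 named genes under the alternatives, 2649 kept their side of the threshold with no change of sign so counted. A change of sign with neither fit past the threshold is among these. The cause was not tested. For genes near the limit of 3 CPM, depth sets how small a difference could be detected.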

Other observations

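Among gene groups not described above, cell cycle genes (18 tested of 29) had 3 higher and 3 lower members, with a median log2 fold change of 0.15, and 5 higher and 1 lower with GC and length trends removed. Pcna, the DNA polymerase clamp, was higher at 323 and 457 CPM (0.57, adjusted p = 0.000199), and so was Hmgb2, a chromatin protein (0.78, adjusted p = 0.000355), while the tubulins Tubb5 and Tuba1b were lower (-0.74 and -0.60). Once the trends were removed Tubb5 was at -0.48, and Tuba1b did not pass (-0.18, adjusted p = 0.0892). Of 20 p53 targets tested 6 were higher and 4 lower (median 0.09), and 5 and 3 with the trends removed (median -0.02). Beside both lists, 25.5% of all genes were higher and 26.6% lower, and 16.8% and 16.2% with the trends removed. The stress gene Gadd45a was higher, at 83.8, 83.7, 80.0 and 68.8 CPM in RNY1+/+ EVFx and 145, 116, 127 and 107 CPM in RNY1-/- EVFx, without overlap (0.71, adjusted p = 0.000227, and 0.81 with the trends removed), whereas the apoptosis effector Bax (-0.78) and the cell cycle inhibitor Cdkn1a (-0.55) were lower and did not pass once the trends were removed (adjusted p = 0.109 and 0.282).

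Of 11 genes of type 2 macrophage activation tested of 23, 5 were higher and 3 lower (median 0.31), against 25.5% and 26.6% of all genes. With the trends removed 4 were higher and 0 lower (median 0.08), against 16.8% and 16.2%. Besides Mrc1, the extracellular matrix gene Fn1 was higher (9.30 and 14.1 CPM, 0.63, adjusted p = 0.0311, and 0.82 with the trends removed), though it missed the threshold without RNY1+/+ EVFx replicate 4 (0.67, adjusted p = 0.0504). The interleukin-4 receptor gene Il4ra was lower (-0.64, adjusted p = 0.00346) but did not pass once the trends were removed (-0.28, adjusted p = 0.0972).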
